A study of Mus musculus with 2 samples.

Results

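The genes described here encode laminin chains and other proteins of the basement membrane in mouse embryonic stem cells. They were picked by symbol, with earlier results of these data known: Lama1, Lama5, Lamb1, Lamb2, Lamc1, Col4a1, Col4a2, Nid1, Sparc and Fn1. All 10 were found in the deposited table of 50508 genes, and each has a single row. The cells are E14, an established embryonic stem cell line of strain 129/Ola, at passages 15 to 18. They were kept on a gelatin coat in medium with serum at 15% and the cytokine LIF at 1000 U/ml. One group received a scramble siRNA and the other an siRNA against Mettl8, both with a lipid transfection reagent, and at 72 h total RNA was extracted. In the table each group is a single library, although the design text speaks of replicates, and whether cultures were pooled is not stated. The title of the series places Mettl8, a target of STAT3, in the control of stem cell differentiation and the JNK pathway.

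A basement membrane is a thin extracellular sheet on which epithelial cells rest. Its laminin network is built from heterotrimers that hold an alpha, a beta and a gamma chain each. A second network is built from type IV collagen. Nidogens link laminin to collagen, and proteoglycans such as perlecan and agrin fill the sheet. The first basement membranes of the mouse embryo appear around the inner cell mass, from which embryonic stem cells are derived. Laminins, collagen IV and SPARC are also strongly made by parietal endoderm, the extraembryonic layer that lays down a thick basement membrane.

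Values are FPKM, reads scaled to gene length and library size, so a level depends on the gene length used, here the authors' deposited length unless another is named. Reads per gene were rebuilt from the FPKM values, whose denominators corresponded to 28.5 M reads in the library labelled scramble siRNA and 27.8 M in the library labelled Mettl8 siRNA. Intervals in parentheses are at 95% and cover counting error only: exact Poisson intervals for a level, and exact Clopper-Pearson intervals for a ratio. With 1 library per group no test between the groups was possible and no value has a replicate error. The targeted gene, Mettl8, had 0.67 FPKM with the scramble label and 100.3 FPKM with the Mettl8 label. Its level thus goes against the label, so directions below are given only between the libraries as labelled. The stem cell label was met: all 15 pluripotency markers of a fixed list had a mean of at least 1 FPKM, with Pou5f1, the gene of OCT4, at 155 and 164 FPKM and Nanog at 175 and 173.

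Per deposited length, the libraries shared 1 order of levels among the 10 genes. Fn1 was highest, followed by Lamc1, Lama5, Sparc, Nid1, Lama1, Lamb1, Lamb2, Col4a1 and Col4a2. The span was wide: Fn1 ranked 643 and 824 among the 21490 protein-coding genes of the table, and Col4a2 ranked 10821 and 11475. In the library labelled scramble siRNA each neighbour in the order differed from the next beyond counting error. In the library labelled Mettl8 siRNA this held for all neighbours except Lama5 and Sparc, whose ratio was 1.00 (0.952 to 1.06). The order depends on the length: per length of the transcript with the longest coding sequence, Lamb1 stood above Lama1 in both libraries (6.91 and 6.35 against 4.86 and 4.40), and Sparc moved to the top with Fn1.

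**Figure D1:**
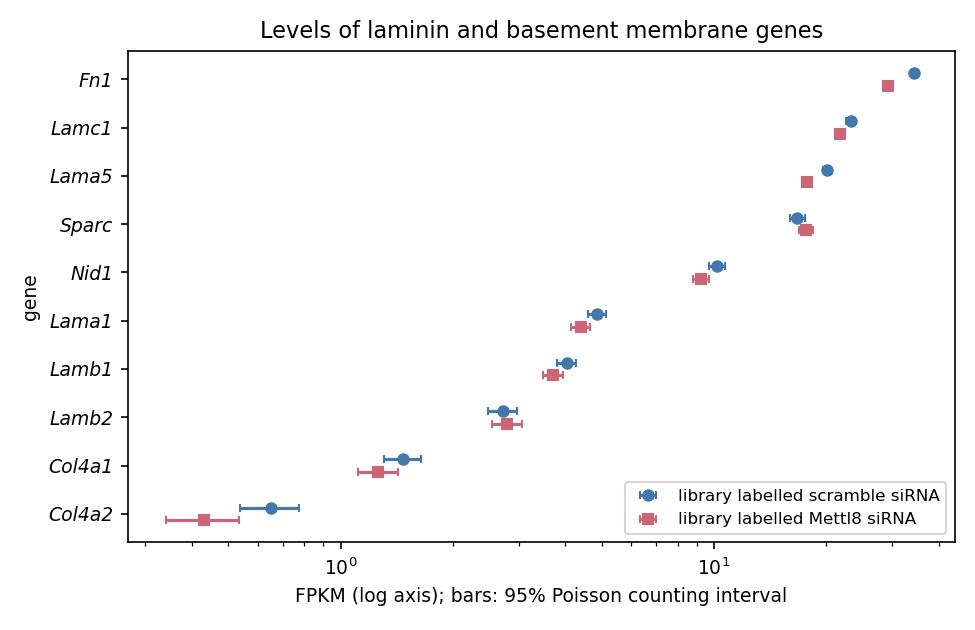
Levels of the 10 genes on a log axis of FPKM, as circles for the library labelled scramble siRNA and squares for the library labelled Mettl8 siRNA, with 95% Poisson counting intervals. Fn1 stands at 34.4 and 29.2 FPKM and Col4a2 at 0.65 and 0.43, and the order of the genes is the same in both libraries.

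Laminin alpha chain transcripts came mainly from Lama5. Positions are those of GENCODE M21 on GRCm38, the assembly that mm10 names, and each span covers the gene with its exons, introns and UTRs. Lama5 lies on chromosome 2 from 180176373 to 180225859 on the minus strand, and Lama1 on chromosome 17 from 67697259 to 67822647 on the plus strand. Lama5, which encodes the alpha chain found in most basement membranes of later tissues, was 20.1 FPKM (19.6 to 20.6) in the library labelled scramble siRNA and 17.7 (17.3 to 18.2) in the library labelled Mettl8 siRNA. Lama1, the alpha chain typical of the early embryo and of parietal endoderm, was 4.87 FPKM (4.61 to 5.14) and 4.40 (4.15 to 4.66). Lama5 thus exceeded Lama1 4.12-fold (3.88 to 4.38) and 4.03-fold (3.78 to 4.29). Of the summed level of these alpha chain transcripts, Lama5 held 80.5% (79.5 to 81.4) and 80.1% (79.1 to 81.1). The intervals overlap, so the alpha chain make-up did not differ between the libraries beyond counting error. The remaining alpha chain genes were near the floor, at 0.03 and 0.04 FPKM for Lama2, 0.26 and 0.28 for Lama3 and 0.04 and 0.07 for Lama4.

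Beta chains were the scarce part of the laminin transcripts. Lamb1 lies on chromosome 12 from 31265234 to 31329644 and Lamb2 on chromosome 9 from 108479736 to 108490530, both on the plus strand. Lamb1, the beta chain of most embryonic laminins, was 4.03 FPKM (3.80 to 4.27) and 3.70 (3.48 to 3.94). Lamb2, a beta chain best known from the neuromuscular junction and the kidney filter, was 2.72 FPKM (2.48 to 2.98) and 2.79 (2.54 to 3.05). Lamb1 held 59.7% (57.1 to 62.3) and 57.0% (54.3 to 59.7) of the summed beta chain level, with overlapping intervals. Lamb3, the remaining beta chain of the fixed lists, was 0.18 and 0.14 FPKM.

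Lamc1 encodes the gamma chain shared by most laminins and was the most abundant laminin transcript, at 23.3 FPKM (22.6 to 23.9) and 21.7 (21.1 to 22.3). It lies on chromosome 1 from 153218922 to 153332786 on the minus strand. Lamc3 was 0.03 and 0.07 FPKM. The alpha chain sum was 1.07 times the Lamc1 level (1.04 to 1.11) in the library labelled scramble siRNA and 1.02 times (0.981 to 1.06) in the library labelled Mettl8 siRNA. The beta chain sum was only 0.290 times (0.274 to 0.307) and 0.299 times (0.282 to 0.317) the Lamc1 level. Transcripts of alpha and gamma chains were thus near parity, while those of beta chains were well below both.

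These ratios rest on the gene length. The deposited length of Lamb1 is 9917 bases, the union of all its exons, while the GENCODE M21 transcript with its longest coding sequence has 5784 bases. Per length of such a transcript for each gene, the share of Lamb1 among beta chains was 70.2% and 67.8%, and the beta chain sum was 0.390 and 0.397 times the Lamc1 level. The alpha chain sum was then 0.988 and 0.938 times Lamc1, but 0.639 and 0.606 times per coding length, because much of the Lamc1 transcript is untranslated. The share of Lama5 stayed between 78.7% and 80.5% under all length settings and with all alpha chain genes counted. The low beta chain sum held under each length setting, but the parity of alpha and gamma chains did not hold per coding length.

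**Figure D2:**
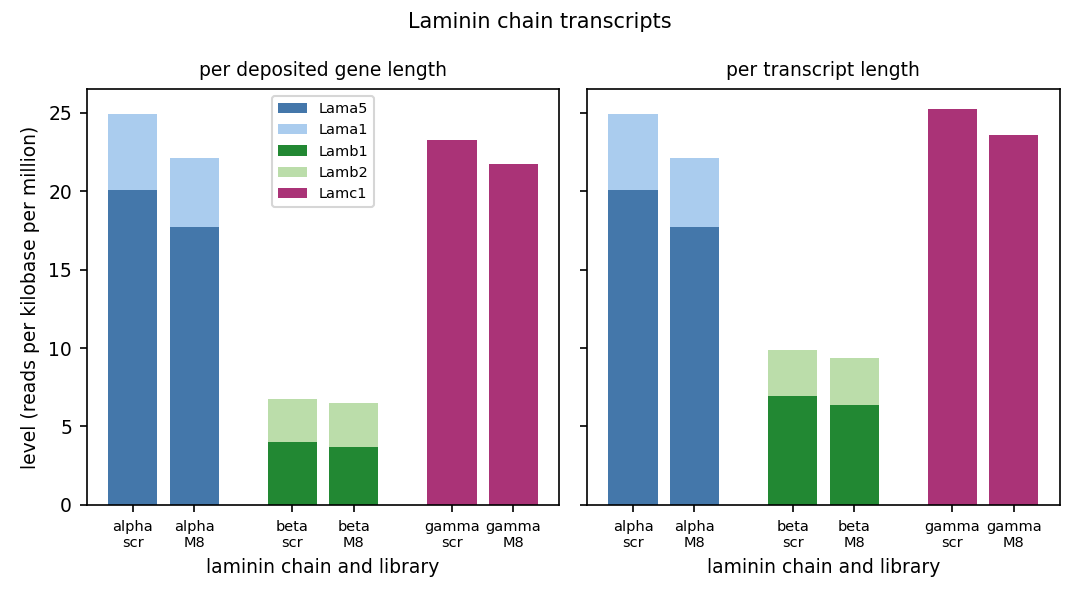
Summed levels of alpha, beta and gamma laminin chain transcripts (reads scaled to length and library size) in the library labelled scramble siRNA (scr) and the library labelled Mettl8 siRNA (M8), per deposited gene length on the left and per transcript length on the right. The alpha and gamma bars reach between 21.7 and 25.2, and the beta bars between 6.49 and 9.85.

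Windows from 250 bases before to 50 after the gene start were held in RefSeq (GRCm38.p6) for 7 of the 10 genes; Lama1, Lamc1 and Fn1 were not matched. They were searched on both strands for the GC box letters GGGCGG, the CCAAT box letters CCAAT and the TATA box letters TATAAA. A GC box match was found in 5 of the 7 windows, against 35.7% of all 32851 windows, and a CCAAT match in 4 of 7, against 37.4%. The 5 windows with a GC box match had a GC content of 63.7% to 74.0%, against a median of 52.7% over all windows. The windows of Col4a1 and Col4a2 overlap, and the single GC box match of the Col4a1 window lies in the bases they share. A TATAAA match was found in 0 of 7, against 13.6% of all windows. The windows of Lamb2 and Sparc held 0 matches of any kind; the Sparc window lies inside the GENCODE gene, away from its outermost start. The matches are descriptions of letters and not binding sites. The upstream stretches of Lama5, Lamb1 and Nid1 that hold no annotated exon are shown with the GC box matches in capitals, 5′ to 3′ on the strand of the gene, since these are the leading alpha chain, the leading beta chain and the laminin linker. They lie at chr2:180225860-180226109 on the minus strand with 4 matches, chr12:31265043-31265233 on the plus strand with 2, and chr13:13437352-13437550 on the plus strand with 1.
Lama5: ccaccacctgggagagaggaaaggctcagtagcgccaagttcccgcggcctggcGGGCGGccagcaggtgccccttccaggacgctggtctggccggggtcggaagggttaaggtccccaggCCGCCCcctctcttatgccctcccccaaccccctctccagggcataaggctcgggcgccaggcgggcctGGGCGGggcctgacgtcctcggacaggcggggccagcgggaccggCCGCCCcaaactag
Lamb1: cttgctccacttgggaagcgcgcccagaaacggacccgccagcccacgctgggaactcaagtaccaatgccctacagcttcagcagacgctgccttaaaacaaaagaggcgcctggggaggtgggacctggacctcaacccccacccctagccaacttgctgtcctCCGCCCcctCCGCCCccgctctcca
Nid1: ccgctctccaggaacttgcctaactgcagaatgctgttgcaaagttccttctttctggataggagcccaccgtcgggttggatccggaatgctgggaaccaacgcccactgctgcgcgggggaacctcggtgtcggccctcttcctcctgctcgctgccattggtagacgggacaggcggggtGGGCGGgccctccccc

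Type IV collagen transcripts were at the bottom of the order. Col4a1 and Col4a2 encode the chains of the common collagen IV trimer, which holds more of the Col4a1 chain than of the Col4a2 chain. Col4a1 was 1.47 FPKM (1.31 to 1.64) in the library labelled scramble siRNA and 1.26 (1.11 to 1.42) in the library labelled Mettl8 siRNA. Col4a2 was 0.65 FPKM (0.538 to 0.773) and 0.43 (0.340 to 0.535), on 122 and 79 reads. The ratio of Col4a1 to Col4a2 was 2.27 (1.83 to 2.82) and 2.94 (2.28 to 3.83), and these intervals overlap. Col4a3, Col4a4, Col4a5 and Col4a6 did not exceed 0.04 FPKM in either library, so Col4a1 and Col4a2 held 94.6% and 94.4% of all collagen IV chain transcripts.

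Several other basement membrane genes were far more abundant than collagen IV. Nid1, the gene of nidogen-1, was 10.2 FPKM (9.72 to 10.7) and 9.25 (8.80 to 9.72), or 6.94 times (6.15 to 7.85) and 7.33 times (6.43 to 8.39) the level of Col4a1. Nid1 lies on chromosome 13 from 13437551 to 13512269 on the plus strand. Its relative Nid2 was higher still, 2.54 times (2.39 to 2.69) and 2.60 times (2.44 to 2.76) the level of Nid1. Col18a1, which encodes a collagen of another class that carries heparan sulphate and is the source of endostatin, was 30.6 and 27.9 FPKM, or 20.8 and 22.1 times the level of Col4a1. Agrn, the gene of agrin, was 19.2 and 18.5 FPKM. Hspg2, the gene of perlecan, was 5.09 and 4.57 FPKM and is named for its role, after its values were seen.

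Col4a1 and Col4a2 lie head to head on chromosome 8 and share their start region. In GENCODE M21 on GRCm38, Col4a1 runs on the minus strand from 11198423 to 11312826 and Col4a2 on the plus strand from 11312805 to 11449287. Their first exons overlap by 22 bases, and their RefSeq windows share 78 bases. The overlap, at chr8:11312801-11312830 with 4 flanking bases on each side, is shown on the plus strand because it ties the rarest transcripts of the group to 1 start region. Capitals mark the bases transcribed on both strands, and they hold the only GC box match of the 78 shared bases.
Col4a1 and Col4a2 starts: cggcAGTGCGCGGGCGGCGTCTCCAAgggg

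SPARC and fibronectin are matrix proteins that are not laminins or collagens. Sparc encodes a secreted glycoprotein that binds collagen, and Fn1 encodes fibronectin, a large adhesive protein bound by integrins. Sparc lies on chromosome 11 from 55394500 to 55423183 and Fn1 on chromosome 1 from 71585520 to 71653200, both on the minus strand. In the library labelled scramble siRNA Sparc reached 16.7 FPKM (15.95 to 17.50), and in the other library 17.65 (16.9 to 18.5). Fn1 was 34.4 FPKM (33.77 to 35.04) and 29.2 (28.6 to 29.8). Here too the gene length matters: the deposited length of Sparc is 3788 bases and its transcript with the longest coding sequence has 1366. Per length of such a transcript, Sparc reached a scaled read level of 46.3 and 48.9 and Fn1 of 48.3 and 41.1, so Sparc came second in 1 library and first in the other. Fn1 shares 292 exon bases with Apol7d, an antisense gene listed at 6.96 and 6.14 FPKM, and without a known strand setting their reads cannot be told apart there.

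Between the libraries, most of these genes were slightly lower in the one labelled Mettl8 siRNA. Of the 10 genes, 8 were lower and 2 higher. With a filter of a mean of at least 1 FPKM, which Col4a2 did not pass, 7 of 9 were lower, while 45.0% of all 13243 genes that passed were lower. The other 2, Lamb2 and Sparc, were higher, as were 54.1% of all genes that passed. The sizes were small: on the log2(FPKM + 1) scale, which understates the change of low genes, 0 of 9 reached 1.5-fold, as did 2.11% of all genes. The median difference was -0.12 over the 10 genes and also -0.12 over the 9, against 0.013 over all genes that passed.

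Fn1 had the largest difference on the log2(FPKM + 1) scale, -0.23, with a ratio of 0.849 (0.826 to 0.873). It lies at the 2.39 percentile of protein-coding genes that passed the filter. Lama5 followed among the abundant genes, at -0.17 and a ratio of 0.883 (0.851 to 0.915), the 5.75 percentile. Among the other laminins, the ratio was 0.904 (0.834 to 0.979) for Lama1 and 0.934 (0.899 to 0.971) for Lamc1. For Lamb1 the ratio was 0.918, with an interval from 0.843 to just under 1. Nid1 had a ratio of 0.908 (0.847 to 0.972). The alpha and gamma chains, Lamb1 and the linker Nid1 were thus lower on the deposited scale, with ratios from 0.883 for Lama5 to 0.934 for Lamc1. Whether these ratios differ from each other was not tested.

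The collagen IV genes were too rare for a narrow estimate. Col4a2 had the lowest ratio of the 10, 0.663 (0.493 to 0.886), on 122 and 79 reads, and did not pass the filter. It was the only one past 1.5-fold on the plain ratio, a rule for which the share over all genes was not counted. Col4a1 had a ratio of 0.859, and its interval of 0.726 to 1.02 includes 1. Lamb2 and Sparc were the exceptions to the lower values, with ratios of 1.03 (0.901 to 1.17) and 1.06 (0.989 to 1.13). Both of these intervals include 1.

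In all, the interval of the ratio lay below 1 for 6 of the 9 genes, against 7.85% of all genes that passed. It lay above 1 for 0 of 9, against 11.6%. Such an interval narrows with read number, so genes with at least 1000 reads over both libraries were also counted. This is a floor and not a match of depth: Fn1 had 11441 and 9498 reads, and Lamb1 1138 and 1021. Of the 7 genes at or above the floor, 6 were lower, against 40.0% of all 6089 such genes. The same 6 had an interval below 1, against 10.9%. The intervals cover counting error only, and 19.7% of those 6089 genes had an interval above 1. The spread between cultures was not measured.

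The count of intervals below 1 depends on the scaling of the libraries. With the FPKM of both libraries brought to 1 common sum, 3 of the 10 remained, Lama5, Col4a2 and Fn1, instead of 7. Among the 9 genes that passed the filter, 2 remained instead of 6. Under that scaling the median over all genes that passed became 0.089 in place of 0.013. The share of those genes with an interval below 1 became 2.20% in place of 7.85%. That scaling put the median difference of the 10 genes at -0.043 and that of Lamc1 at -0.0043. The count of lower genes stayed at 8 of 10, but the share of all genes that were lower was not counted under that scaling.

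GC content moved with the differences across the transcriptome. Protein-coding genes that passed the filter were put into 4 equal groups by the GC content of their longest-coding transcript. From the lowest to the highest GC group, 27.7%, 38.7%, 49.5% and 62.0% were lower in the library labelled Mettl8 siRNA. The median differences of these groups were 0.052, 0.027, 0 and -0.031. Of the 9 genes, Nid1 stood in the second group, Lama1, Lamb1, Lamc1, Sparc and Fn1 in the third, and Lama5, Lamb2 and Col4a1 in the highest. The part of GC content in the lower values was not tested. Of protein-coding genes at least as long as Sparc, the shortest of the 10, 43.2% were lower, against 44.5% of all protein-coding genes.

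**Figure D3:**
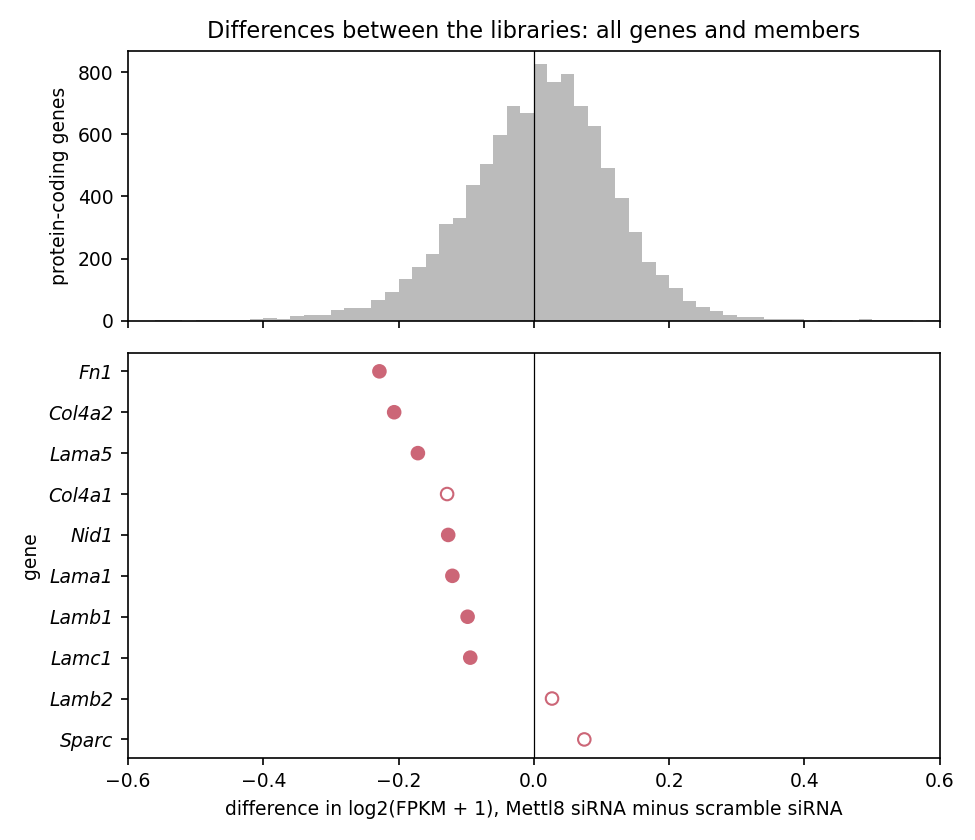
Top, histogram of the difference in log2(FPKM + 1) between the libraries for protein-coding genes with a mean of at least 1 FPKM, of which 10 lie outside the plotted range. Bottom, the same difference for the 10 genes, with filled points where the counting interval of the ratio leaves out 1; the points run from -0.23 for Fn1 to 0.07 for Sparc.

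Other matrix genes of the basement membrane were compared with the same rule. Of 24 further components, 8 had a mean of at least 1 FPKM, 7 lower and 1 higher, with a median of -0.076. Over all genes that passed, 45.0% were lower and 54.1% higher, and this holds as the background of each list below. Nid2 had a ratio of 0.930 (0.886 to 0.975) and Col18a1 of 0.911 (0.878 to 0.945). Agrn had a ratio of 0.964 (0.926 to 1.00). Ntn1, the gene of netrin-1, whose protein is related to laminin, was the higher one, at 6.23 and 6.90 FPKM with a ratio of 1.11 (1.02 to 1.20). The interval lay below 1 for 4 of the 8 and above 1 for 1, against 7.85% and 11.6% of all genes that passed. Among genes with at least 1000 reads over both libraries the shares were 10.9% and 19.7%.

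Receptors for laminin and fibronectin were mixed. Of 21 receptor genes, 12 passed the filter, 7 higher and 5 lower, near the share over all genes, with a median of 0.0072. The interval lay above 1 for 1 of the 12, Itgb1, and below 1 for 2, Sdc4 and Ddr1; Ddr1, a collagen receptor kinase with a ratio of 0.872 (0.762 to 0.998), is named after its values were seen. Itgb1, the beta subunit of the main laminin and fibronectin integrins, reached 30.2 and 33.3 FPKM, with 1.10 (1.05 to 1.15) as the ratio. Its partners Itga6 (14.9 and 15.3 FPKM) for laminin and Itga5 (11.6 and 11.7) for fibronectin had intervals that include 1 and are named for their role, after their values were seen. Sdc4, the gene of the heparan sulphate proteoglycan syndecan-4, a fibronectin co-receptor, stood at 39.0 and 32.8 FPKM, with a ratio of 0.842 (0.796 to 0.889). Bcam, the gene of a receptor for the Lama5 chain, was 24.7 and 24.1 FPKM. Rpsa, which encodes a ribosomal protein also described as a laminin receptor, was 334 and 333 FPKM; it has near-identical copies in the genome and is uncertain.

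Genes that act inside the cell at integrin contacts, or that make and modify collagen, were mixed as well. Of 13 adhesion partners, 10 passed, 5 higher and 5 lower, with a median of 0.012. Vcl (vinculin) was 16.2 and 17.1 FPKM, Tln1 (talin) 12.1 and 12.8 and Ptk2 (focal adhesion kinase) 10.7 and 11.0. Fermt2, the gene of kindlin-2, an integrin activator, stood at 15.4 and 16.9 FPKM, with a ratio of 1.10 (1.03 to 1.18). Of 18 measured genes of collagen synthesis and export, 15 passed, 6 higher and 9 lower, with a median of -0.015. P4hb, a subunit of prolyl hydroxylase, was 109 and 115 FPKM, Ppib 22.9 and 23.0, and Colgalt1, a collagen galactosyltransferase, 20.6 and 21.2. Plod2, a lysyl hydroxylase, stood at 15.2 and 13.1 FPKM, with a ratio of 0.860 (0.810 to 0.914). These 4 enzymes were far more abundant than the collagen IV transcripts, while other genes of the list, such as Colgalt2 at 0.00 and 0.01 FPKM, were not; it is named after its values were seen.

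Enzymes that crosslink or cut the matrix were mostly low. Of 8 crosslinking enzymes 3 passed, 2 higher and 1 lower, with a median of 0.035. These were Tgm1 (7.43 and 8.08 FPKM), Loxl2 (1.34 and 1.19) and Loxl3 (1.03 and 1.08). Of 19 matrix proteases and inhibitors 7 passed, 3 higher and 4 lower, with a median of -0.055, which turned to 0.049 at a mean of at least 5 FPKM. Mmp11, the gene of stromelysin-3, stood at 15.7 and 13.4 FPKM, with a ratio of 0.854 (0.786 to 0.928). Timp1, a protease inhibitor, was 10.1 and 11.2 FPKM with an interval that includes 1, Adam17 was 5.34 and 5.56 and Adam10 4.83 and 4.61. None of the genes of these lists reached 1.5-fold on the log2(FPKM + 1) scale.

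**Figure D4:**
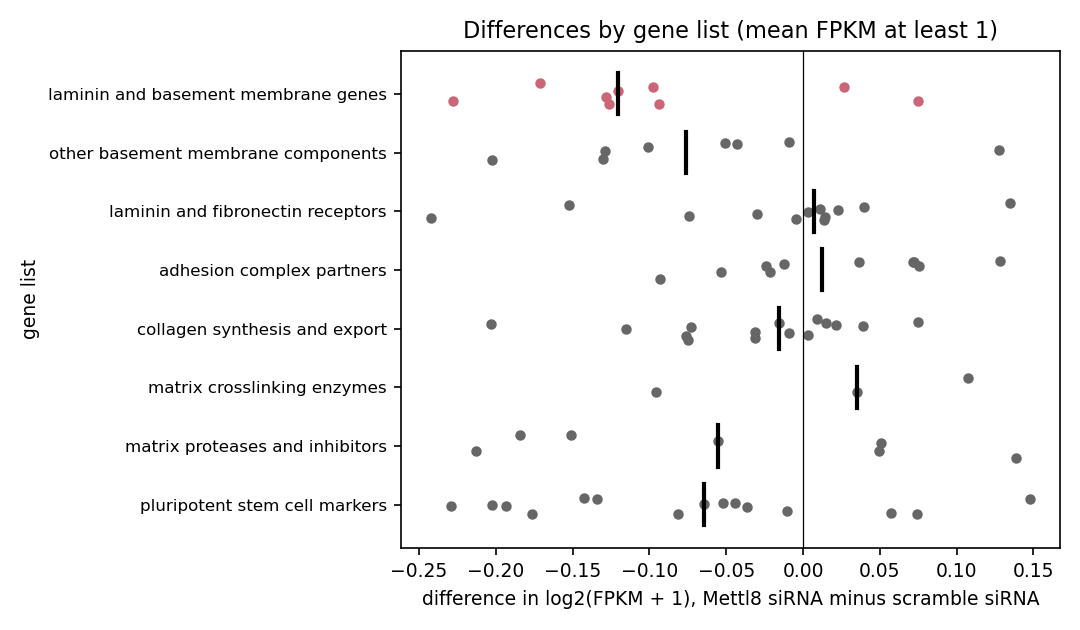
Difference in log2(FPKM + 1) between the libraries for genes with a mean of at least 1 FPKM, 1 point per gene, by gene list, with the median of each list as a black bar. The laminin and basement membrane genes (red) have a median of -0.12, other basement membrane components -0.076, and receptors 0.0072.

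Basement membrane genes are shared with other cell types, so the markers of those cells were read beside them. In bulk RNA, fewer cells of a type and less RNA per cell cannot be told apart. Of 16 markers of primitive and parietal endoderm, 1 passed the filter, Lrp2, at 2.22 and 2.08 FPKM. Without the filter, 10 of the 16 were higher and 4 lower in the library labelled Mettl8 siRNA, with a median of 0.030, almost all on few reads. Over all genes without a filter, 28.3% were lower, and the share that were higher was not counted. Foxa2, listed at 0.01 and 0.14 FPKM and named after its values were seen, had a ratio of 9.21 with an interval from 1.28 to 404. Gata4, Gata6, Sox7 and Sox17, the defining transcription factors, were at 0.55 FPKM or below in both libraries. The summed level of this list was 5.09 and 5.16 FPKM, with Lrp2 alone at 2.22 and 2.08. The part of endoderm cells in the laminin levels was not tested. Of 10 visceral endoderm markers, 1 passed, Apoe, at 105 and 100.1 FPKM. Afp and Ttr were at 0.03 FPKM or below, while Trf (0.94 and 1.02) and Hnf4a (0.49 and 0.36) stood higher without passing. All of these but Apoe are named after their values were seen. Of 22 fibroblast and feeder cell markers, 2 passed, Mmp2 (2.75 and 2.30 FPKM) and Tagln (1.18 and 1.03), both lower; Mmp2 is also in the list of proteases. The summed level of the 22 was 7.12 and 6.14 FPKM. Col1a1, Col1a2 and Col3a1, the defining collagens, were at 0.12 FPKM or below and Dcn and Lum at 0.01 or below. Higher, but still short of the filter, were Twist1 (0.72 and 0.62), Thy1 (0.66 and 0.64), Col5a1 (0.58 and 0.55) and Pdgfrb (0.42 and 0.27). Those below the filter are named after their values were seen. The part of these cell types in the lower values of Fn1 and the laminins was not tested. Of the 15 pluripotency markers, 12 were lower and 3 higher, against 45.0% and 54.1% of all genes that passed, and their median difference was -0.065. Their intervals lay below 1 for 8 and above 1 for 3, against 7.85% and 11.6%. Most of these markers are read deeply, and among genes with at least 1000 reads over both libraries the shares were 10.9% and 19.7%.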

How the data were processed

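RNA-seq libraries of E14 cells were analysed, 1 labelled scramble siRNA and 1 labelled Mettl8 siRNA. The authors deposited 1 table of FPKM, rounded to 2 decimals, with a gene length. The submitters' processing notes name the aligner STAR 2.4.0i, the counter featureCounts 1.5.0-p1 and the build mm10. Which annotation was used, how strand was set and what was done with multi-mapping reads is not given in the sources used here. The deposited lengths of 8 of the 10 genes equal the exon union in GENCODE M21.

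FPKM multiplied by length fell on whole multiples of 1 step per library. Whole reads (tolerance: the rounding plus 0.005 reads) came out for 100% of the 3064 and 3493 values checked, in genes under 400 bases and below 30 reads. Rebuilt reads, 22.2 M and 21.4 M over all genes, gave the intervals, by the delta method on the log scale where a ratio holds a sum. Differences are log2(FPKM + 1), Mettl8 siRNA minus scramble siRNA, at a mean FPKM of at least 1. Python 3.11.15, numpy 2.4.6, pandas 2.3.3 and scipy 1.17.1 were used. Poisson counts, the error that the intervals assume, were simulated for 50508 genes. Of the genes at a mean FPKM of at least 1, 95.8% had an interval that held the true ratio. This checks the computation and not the spread between real libraries.

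Groups hold 1 library each, so no test was made. The genes and the lists were chosen with earlier results of these data known. Beyond the 10 genes and Mettl8, named genes are the other laminin and collagen IV chains, of which 1 is not reported here, and, per list, up to 4 with the highest mean and, at a mean of at least 5 FPKM, up to 2 with the largest difference. No gene was named by likeness of pattern, since 2 libraries allow no such measure. Of the list symbols, 1 (Ctage5) was not found. Alternatives were other pseudocounts, filters, scalings and lengths.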

Additional observations from a re-analysis of the deposited data

How the results depend on the processing

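With 1 library per group no library could be left out. No paired analysis was possible because each group holds 1 library and the labels give no replicate numbers. Of the 10 genes, 8 were lower under each of the 5 alternative pseudocounts and scalings, and their median difference lay between -0.14 and -0.043. Most of these alternatives could not have lowered that count. A pseudocount does not turn the sign of a difference, and the median and trimmed mean scalings shifted values down (-0.027 and -0.025 in log2). Only the same FPKM sum shifted values up (0.094). The share of all genes that were lower was not counted under the other scalings. The genes with an interval below 1 numbered 7 as reported, 8 with the median or the trimmed mean of log2 ratios set to 0, and 3 with the same FPKM sum. Among the 9 that passed the filter these counts were, in the same order, 6, 7, 7 and 2. The shares of all genes that passed were 7.85%, 11.1%, 10.7% and 2.20%. Lengths were replaced by transcript or coding lengths, an alternative chosen after seeing the data; the lengths of RefSeq proteins were not used here. In the library labelled scramble siRNA, the share of Lamb1 was then 70.2% per transcript and 70.3% per coding length, the alpha sum 0.988 and 0.639 times Lamc1, and the beta sum 0.390 and 0.259 times. In the library labelled Mettl8 siRNA these were 67.8% and 68.0%, 0.938 and 0.606, and 0.397 and 0.263. With all alpha chain genes the share of Lama5 was 79.4% and 78.7%. The share of all genes past 1.5-fold was 2.11% as reported, 1.39% without a filter, 0.752% at a mean of at least 5 FPKM, 3.84% with a pseudocount of 0.1, 0.100% in protein-coding genes and 0.131% at 1000 reads or more. The share of all genes that were lower was 28.3% without a filter, which adds genes with 0 reads. The share of all genes whose interval left out 1 was 6.21% without a filter and 30.6% at 1000 reads or more. List medians changed sign with the filter for proteases and inhibitors (0.049 at a mean of at least 5 FPKM) and endothelial markers (0.076, 1 gene), and, without a filter, for adhesion partners (-0.012), primitive and parietal endoderm markers (0.030) and trophectoderm markers (0.025). Depth limits Col4a1, Col4a2 and Lamb2, whose intervals are the widest of the 10.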

Other observations

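Markers of endothelium and trophectoderm, cell types that rest on basement membranes, were read as values. Of 8 endothelial markers, 3 had a mean of at least 1 FPKM: Pecam1 (5.14 and 5.47 FPKM in the libraries labelled scramble siRNA and Mettl8 siRNA), Eng (2.98 and 2.69) and Tek, a receptor kinase for angiopoietins (2.82 and 2.19, ratio 0.777, 0.664 to 0.908). Of 10 trophectoderm markers, 4 passed: Tfap2c (12.0 and 10.7 FPKM), Krt18 (3.11 and 2.80), Krt8 (2.45 and 2.47) and Tead4 (1.49 and 1.27). The other endothelial markers did not exceed 0.39 FPKM in either library, and the other trophectoderm markers did not exceed 0.77. Cdh5 (0.03 and 0.04) and Cdx2 (0.03 and 0.06) were near the floor and are named after their values were seen. Whether such cells were present was not tested. Among the pluripotency markers, 12 were lower and 3 higher. Utf1 was 43.5 and 36.9 FPKM, Klf2 52.6 and 45.5, Dppa5a 578 and 564, and Tdgf1 125 and 121. The 3 higher ones were Pou5f1, Tfcp2l1 (51.7 and 53.8 FPKM) and Lin28a (36.1 and 40.1). Tfcp2l1 and Lin28a are named after their values were seen.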
